A study of Mus musculus with 25 samples.

Results

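The comparison described here is the passage of time on a low-fat diet: 4 arrays of gonadal white adipose tissue taken after 12 weeks of diet against 4 arrays taken after 4 weeks, 8 of the 25 arrays of the series. Members were chosen by the diet and time named in the array titles. All mice of the series were heterozygous male apoE3L.CETP mice, whose transgenes are the Leiden variant of human apolipoprotein E and human CETP, a lipid transfer protein that mice lack, so that their plasma lipoproteins resemble those of humans. From the age of 12 weeks they were randomised by body weight to a low-fat diet (LFD), with 20% protein, 70% carbohydrate and 10% fat, or to a high-fat diet (HFD) with 60% fat and added cholesterol. The LFD mice were the controls of the diet study, and their own time course is the subject here. The 4-week LFD mice were 16 weeks old by the labels. The 12-week LFD mice were labelled 34 weeks old, although a start at 12 weeks plus 12 weeks of feeding comes to 24, so time on diet, age and any separate handling of the groups cannot be told apart. LFD was also sampled at 8 weeks (4 arrays, 20 weeks old), HFD at 4 weeks (3 arrays), 8 weeks (4) and 12 weeks (4), and chow at the start of diet (2 arrays, 12 weeks old). The HFD mice carried the same age labels as the LFD mice, 16, 20 and 34 weeks at 4, 8 and 12 weeks of diet. Each array held the RNA of a separate mouse, per the labels, and the number of arrays limits the precision.

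Gonadal white adipose tissue is the fat pad beside the epididymis in male mice. Its adipocytes store triglyceride made from dietary fat or, on a diet rich in carbohydrate, built from glucose by de novo lipogenesis, and they secrete hormones such as leptin and adiponectin. The pad also holds progenitor cells, fibroblasts that lay down collagen, blood vessels, macrophages and other immune cells. As mice grow and their adipocytes enlarge, genes such as Mest, Sfrp5 and Bmp3 are known to vary with the expansion of the pad. Albumin, fibrinogen and other plasma proteins are made by hepatocytes and are not products of fat tissue.

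Levels are the deposited log2 values of a gene's transcript cluster, and 1 unit is a change of 2-fold. A difference is the mean at 12 weeks minus the mean at 4 weeks, given ± its standard error from a linear model over all 25 arrays. A gene was called where its p value, adjusted over all 22180 genes by the Benjamini-Hochberg method, was under 0.05. Array medians were between 5.04 and 5.36, and the 8 arrays correlated pairwise between 0.9303 and 0.9917 across transcript clusters. No 2 arrays held the same values.

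Liver transcripts separated most of the 12-week arrays from the 4-week arrays. Alb, which encodes albumin, read 11.64, 9.65, 7.07 and 10.10 in 4-week arrays 1 to 4 and 13.42, 13.35, 11.84 and 13.16 in 12-week arrays 1 to 4. Every 12-week array was above every 4-week array, yet 4-week array 1 and 12-week array 3 were only a short distance apart. The difference was 3.33 ± 1.39, a 10.0-fold higher mean, with an adjusted p of 0.251. The mean of 28 measured hepatocyte markers, out of 30 written, was 6.89, 5.79, 5.02 and 5.55 at 4 weeks and 10.81, 10.62, 7.09 and 9.98 at 12 weeks. Arrays 1, 2 and 4 of the 12-week group were thus high, and array 3 lay near 4-week array 1. All 28 markers had a higher mean at 12 weeks, by 1.36 to 4.86 with a median of 3.98, and 0 of 28 were called, the smallest adjusted p being 0.0757. Arrays 1, 2 and 4 exceeded every 4-week array for 28 of 28 markers, and array 3 did so for 18 of 28. At 8 weeks of LFD the hepatocyte mean was 10.08, 9.70, 5.14 and 5.43, so that arrays 1 and 2 were high there and arrays 3 and 4 were not.

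Some genes of other liver cells were highest in the same arrays. Clec4g, a lectin of liver sinusoidal endothelium, read 4.37, 4.52, 4.40 and 3.94 at 4 weeks and 7.05, 6.71, 4.67 and 6.24 at 12 weeks. Vsig4, a complement receptor of resident macrophages, read 4.73, 4.67, 4.19 and 4.41 against 6.31, 6.17, 4.66 and 5.56. Both were highest in 12-week arrays 1 and 2 and lowest among the 12-week arrays in array 3. The median difference was 0.88 over 6 genes of liver endothelium and 0.78 over 6 genes of liver macrophages, against 0.0025 over all genes. For 6 genes of hepatic stellate cells it was 0.28. A called slope on the hepatocyte mean, as described below, was found for 3 of the 6 endothelial genes, 3 of the 6 macrophage genes and 2 of the 6 stellate genes. Gata4, of the endothelial list, differed by 0.005 ± 0.18, and Marco and Fcna, of the macrophage list, by 0.17 ± 0.14 and 0.42 ± 0.19, none with a called slope.

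A transcript of the X chromosome varied with the liver markers. Xist, the RNA that coats the inactive X chromosome of female cells, read 3.79, 3.55, 3.92 and 3.63 at 4 weeks and 6.76, 6.46, 3.82 and 5.94 at 12 weeks, although all mice were labelled male. Array 3 of the 12-week group was at the 4-week level, and the difference of 2.02 ± 0.57 was not called (adjusted p = 0.087). The mean of 3 Y-linked genes was 8.27, 8.06, 7.97 and 7.98 at 4 weeks and 7.70, 7.86, 8.08 and 7.92 at 12 weeks. Genes that are more active in female liver than in male liver were higher in mean at 12 weeks for 10 of 10 measured members, and genes more active in male liver for 9 of 11. The part of these transcripts in each result below was not tested directly; instead every difference was also computed at an equal hepatocyte mean, by adding each array's hepatocyte mean to the model. That model assumes that a gene's level varies in a straight line with the hepatocyte mean, and it leaves 17 residual degrees of freedom. The slope of that line was shared by all 7 groups. Hepatocyte means of the 2 compared groups did not overlap, being at most 6.89 at 4 weeks and at least 7.09 at 12 weeks. A difference at an equal hepatocyte mean therefore extends the line beyond the arrays of at least 1 group.

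Array 1 of the 4-week group also stood apart. Its mean over 13 genes of the epididymis, the organ the fat pad lies on, was 5.98, against 4.35, 4.38 and 4.47 in the other 4-week arrays and 4.21 to 4.44 at 12 weeks. It had the highest median of the 25 arrays, 5.36, and its mean over 15 mature adipocyte markers, 11.12, was the lowest of the 8, the others being between 11.37 and 11.57. The adipocyte markers read high in all 8 arrays and had a median difference of 0.00, with 0 of 15 called. Adipoq was between 11.32 and 11.69 in each of them, and the tissue label was borne out to that extent. Outside the 8, chow array 1 had an epididymis mean of 11.56 and an adipocyte mean of 10.29, against 4.46 and 11.33 in chow array 2. Chow values below are given in the order of arrays 1 and 2, so the first of each pair is from the array high in epididymis transcripts.

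**Figure D1:**
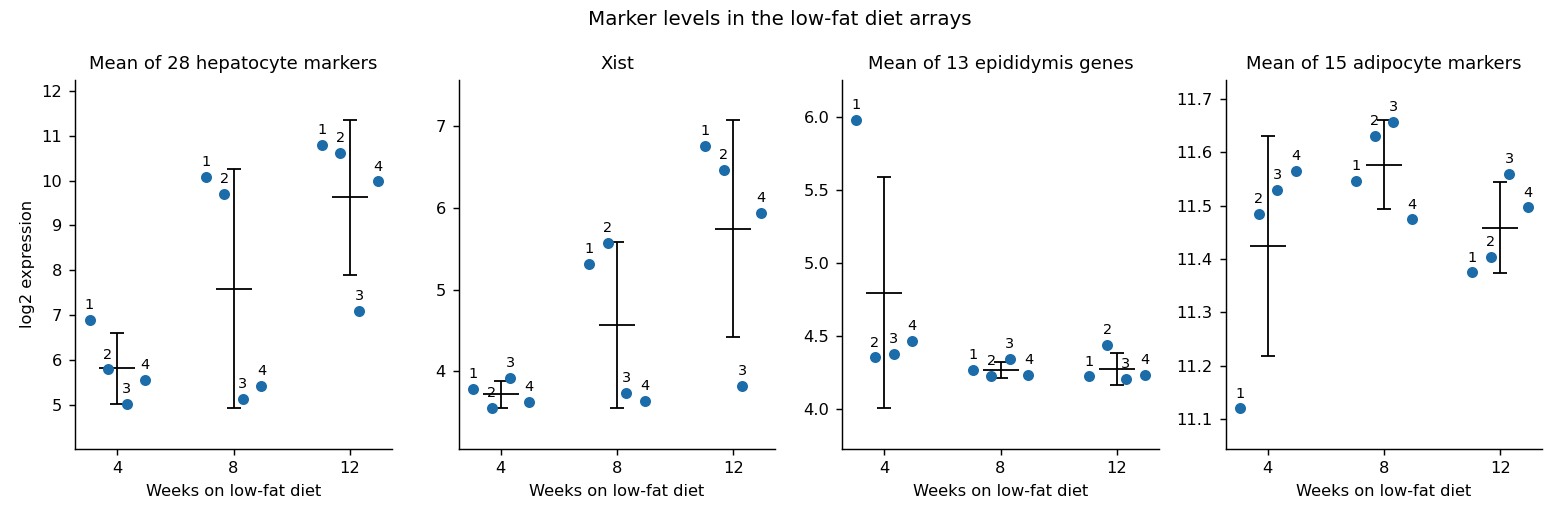
Log2 level against weeks of low-fat diet for the mean of 28 hepatocyte markers, Xist, the mean of 13 epididymis genes and the mean of 15 mature adipocyte markers; points are single arrays with their replicate number, lines the mean ± SD of 4 arrays. Hepatocyte markers and Xist are high in 8-week arrays 1 and 2 and in 12-week arrays 1, 2 and 4, and 4-week array 1 is highest for the epididymis genes and lowest for the adipocyte markers.

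Between 4 and 12 weeks of LFD, 151 of 22180 genes were called (0.681%), of which 66 were higher (0.298%) and 85 lower (0.383%) at 12 weeks. The unadjusted p was under 0.05 for 3335 genes. Of the 151, 145 had no overlap between the 4 and 4 arrays, as did 8.82% of all genes. At an equal hepatocyte mean 15 genes were called (0.0676%), 1 higher (0.00451%) and 14 lower (0.0631%), and 14 of these 15 were also among the 151. The count of 151 rested on single arrays: it was 50, 100 and 53 without 4-week arrays 1, 2 and 3, 49, 40 and 28 without 12-week arrays 1, 2 and 4, and 639 without 12-week array 3. A fit to the 8 arrays alone called 14 genes. Without any of the arrays with a high hepatocyte mean, which leaves array 3 as the only 12-week LFD array, 0 genes were called by limma and 713 had an unadjusted p under 0.05. That lone array is assumed to vary like the other groups, so this count does not show what the 151 rest on. The balance of rises and falls was not stable either. Rises were the more frequent with array weights (798 against 537) and without 12-week array 3 (478 against 161). So they were by the analysis of variance with unadjusted p and a fold limit (583 against 309). Without genes under the median cluster level there were 69 rises against 55 falls, and without the chow arrays 148 against 147. Without receptors, small RNAs and provisional genes there were 32 against 27. Falls were the more frequent in most other alternatives.

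The calls were not spread evenly over kinds of transcript. Genes with full names made up 56 of the rises and 39 of the falls, 0.551% of the 17252 measured. MicroRNA hairpins were 3 of the rises and 11 of the falls, 2.9% of 483, and olfactory or vomeronasal receptors 1 and 17, 1.29% of 1396. The remaining calls were 22 genes with provisional names, 6 higher and 16 lower, and 2 lower small nucleolar RNAs. Median levels over the 25 arrays were 3.91 for hairpins and 2.99 for these receptors, against 6.45 for genes with full names. Both kinds thus lay mostly below the median cluster level of 5.14. The receptors are chemosensory genes of the nose. Their median difference of -0.12 became 0.0017 without 4-week array 1, which had the highest median.

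The 3 largest rises were of genes known for a sex bias in liver, 2 of the 10 measured that are more active in females and 1 of the 11 more active in males, and all 3 varied with the hepatocyte mean. Over all genes, 0.298% were called higher. Cyp2a4, a steroid hydroxylase more active in female than in male mouse liver, read 3.65, 3.78, 3.39 and 3.65 at 4 weeks and 9.43, 9.28, 5.47 and 8.45 at 12 weeks. It rose by 4.54 ± 1.05 (23.3-fold, adjusted p = 0.046), with no overlap, and array 3 was the lowest of the 12-week arrays. At an equal hepatocyte mean the difference was 1.25 ± 0.40 and was not called (adjusted p = 0.24). Cyp2b13, another cytochrome more active in female liver, read 3.78, 3.73, 4.10 and 3.48 against 7.29, 6.98, 4.45 and 6.14, a rise of 2.44 ± 0.53 that became 1.02 ± 0.38 at an equal hepatocyte mean. Both genes have close relatives in the same families, so probes may read more than 1 of them. Elovl3, which lengthens fatty acids and is more active in male liver as well as in brown fat, read 5.29, 4.02, 4.36 and 4.04 against 8.59, 8.22, 4.97 and 7.55. It rose by 2.91 ± 0.65 (adjusted p = 0.0393), although its 4-week array 1 was above 12-week array 3, and the difference was 1.03 ± 0.38 at an equal hepatocyte mean.

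Other rises were smaller. Onecut2, a transcription factor of liver and neurons, read 4.03 to 4.70 at 4 weeks and 6.23, 6.10, 4.89 and 5.92 at 12 weeks, a rise of 1.52 ± 0.36 that became 0.57 ± 0.26. Gltpd2, which belongs to the glycolipid transfer proteins, rose by 1.35 ± 0.26 and had a difference of 0.68 ± 0.20 at an equal hepatocyte mean. Homer2, a scaffold protein that binds glutamate receptors, rose by 1.19 ± 0.26 against 0.62 ± 0.24. Dnase1l3, a secreted DNase and a marker of liver endothelium, read 5.50, 5.28, 4.95 and 5.02 at 4 weeks and 6.60, 6.73, 5.63 and 6.06 at 12 weeks, a rise of 1.07 ± 0.23 against 0.68 ± 0.25. Ppp1r3b, which targets protein phosphatase to glycogen, read 6.33, 7.11, 7.21 and 7.72 against 8.52, 8.40, 8.42 and 9.74. Its rise of 1.68 ± 0.39 (adjusted p = 0.0497) was shared by array 3, which was at the level of arrays 1 and 2, and its difference at an equal hepatocyte mean was 0.90 ± 0.39. Neither Dnase1l3 nor Ppp1r3b had a called slope on the hepatocyte mean (adjusted p of 0.299 and 0.0885). The mean of the 2 Ppp1r3b clusters differed by 1.16.

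Over the whole table, 485 genes (2.19%) had a called slope on the hepatocyte mean, positive for 463 of them (2.09%). Of the 66 rises 11 had one, Cyp2a4, Cyp2b13, Elovl3, Onecut2, Gltpd2 and Homer2 among them, and 8 of the 66 kept under 50% of their difference at an equal hepatocyte mean. By contrast 44 of the 66 rises kept at least 75% of it. Of the 85 falls, 79 kept at least 75%, and 1 had a called slope, which was positive.

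The largest rises with little dependence on the hepatocyte mean were Hspb7, Fgf13 and Bmp3. Fgf13, an intracellular member of the fibroblast growth factor family that binds sodium channels and microtubules, read 5.39, 6.10, 4.82 and 6.29 at 4 weeks and 6.96, 7.38, 6.93 and 7.52 at 12 weeks. The groups did not overlap, and array 3, low in liver transcripts, was at the level of array 1. The chow arrays both read 4.98, and the 8-week LFD mean of 6.58 lay between. The rise of 1.55 ± 0.28 (2.92-fold, adjusted p = 0.0124) was 1.67 ± 0.34 at an equal hepatocyte mean, where it was not called (adjusted p = 0.0618). Bmp3, a secreted bone morphogenetic protein of adipose tissue, read 6.12, 7.95, 6.43 and 7.46 against 8.33, 8.43, 8.31 and 8.51. The 12-week arrays were close together and the 4-week arrays were spread, with arrays 1 and 3 low, and the 2 chow arrays at the start of diet read 5.64 and 6.00. Its rise of 1.41 ± 0.26 (adjusted p = 0.016) became 1.55 ± 0.32 (adjusted p = 0.0684). Hspb7, a small heat shock protein known from heart and muscle, read 6.18, 7.55, 6.27 and 6.72 against 7.46, 8.05, 8.55 and 8.91, a rise of 1.56 ± 0.36 (adjusted p = 0.0457), with array 3 among the highest and a slight overlap. The difference was 1.50 ± 0.44 at an equal hepatocyte mean.

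Fgf13 and Bmp3 belong to a list of 12 genes tied to adipocyte expansion, of which 2 rose and 0 fell, with a median difference of 0.34. Over all genes 0.681% were called. The list was chosen with earlier results of these data known, so its calls are not independent evidence of expansion. Mest, an imprinted gene of the mesoderm-specific transcript that varies with fat pad growth, read 9.68, 10.73, 9.41 and 9.56 at 4 weeks and 11.27, 10.98, 10.32 and 10.93 at 12 weeks. Its difference of 1.03 ± 0.25 was just outside the threshold (adjusted p = 0.0547) and stayed at 1.06 ± 0.31 at an equal hepatocyte mean. Sfrp5, a secreted inhibitor of Wnt signalling, read 5.37, 7.47, 4.67 and 5.75 against 5.63, 7.90, 7.27 and 8.42, a difference of 1.49 ± 0.55 (adjusted p = 0.175), with wide overlap. Lep, the leptin gene, differed by 0.09 ± 0.22. In 15 measured imprinted growth genes 0 were called, and their median difference was 0.17.

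Stress and clock genes gave single calls, where 0.681% of all genes were called. The lists were chosen with earlier results of these data known, so a single call says little about a pathway. Zfand2a, an arsenite- and heat-inducible zinc finger protein that acts at the proteasome, read 8.00, 8.41, 8.35 and 8.34 at 4 weeks and 8.75, 8.87, 9.02 and 8.81 at 12 weeks. The groups did not overlap, but the difference of 0.59 ± 0.15 was not called as measured (adjusted p = 0.0733). At an equal hepatocyte mean it was 0.88 ± 0.16 (adjusted p = 0.0207), and Zfand2a was the single gene that was higher in that fit, a call lost without 4-week array 1 or 12-week arrays 2 or 3. The 8-week LFD arrays, at 8.66, 8.94, 8.98 and 9.12, were also above every 4-week array. Herpud1, a component of endoplasmic reticulum protein degradation, read 9.06, 9.53, 9.40 and 9.63 against 10.35, 10.39, 9.84 and 10.22. It rose by 0.80 ± 0.17, alone among 15 genes of the unfolded protein response, and its difference was 0.51 ± 0.18 at an equal hepatocyte mean. Hspb7 was the 1 call among 12 heat shock genes.

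Nfil3, a clock-controlled repressor, read 5.59, 5.95, 6.02 and 6.02 at 4 weeks and 6.47, 6.48, 6.59 and 6.96 at 12 weeks, with no overlap. It rose by 0.73 ± 0.16 (adjusted p = 0.0354) and differed by 0.76 ± 0.19 at an equal hepatocyte mean. It was the only call among 17 clock genes. The 2 chow arrays at the start of diet read 6.46 and 6.33 for Nfil3, above every 4-week array. Dbp, a clock output factor, read 9.23, 9.57, 10.33 and 10.64 against 10.73, 10.54, 10.73 and 10.34, and Arntl, the clock activator that peaks opposite to it, read 6.70, 6.94, 6.22 and 6.00 against 6.12, 5.65, 5.99 and 6.00. In both genes 4-week arrays 1 and 2 were away from the 12-week arrays and 4-week arrays 3 and 4 were close to them, and neither was called (differences of 0.64 ± 0.26 and -0.53 ± 0.23). The hour of tissue collection is not given in the sources used here. Mdm2, the ubiquitin ligase that restrains p53, read 7.77, 7.75, 7.78 and 7.79 against 8.18, 8.11, 8.29 and 8.39. Its rise was small, 0.47 ± 0.10 (adjusted p = 0.0393), the same at an equal hepatocyte mean (0.47 ± 0.13), and exceeded a very narrow spread at 4 weeks. It was the 1 call among 8 measured genes of p53 and senescence. Beside these list counts, 0.681% of all genes were called.

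**Figure D2:**
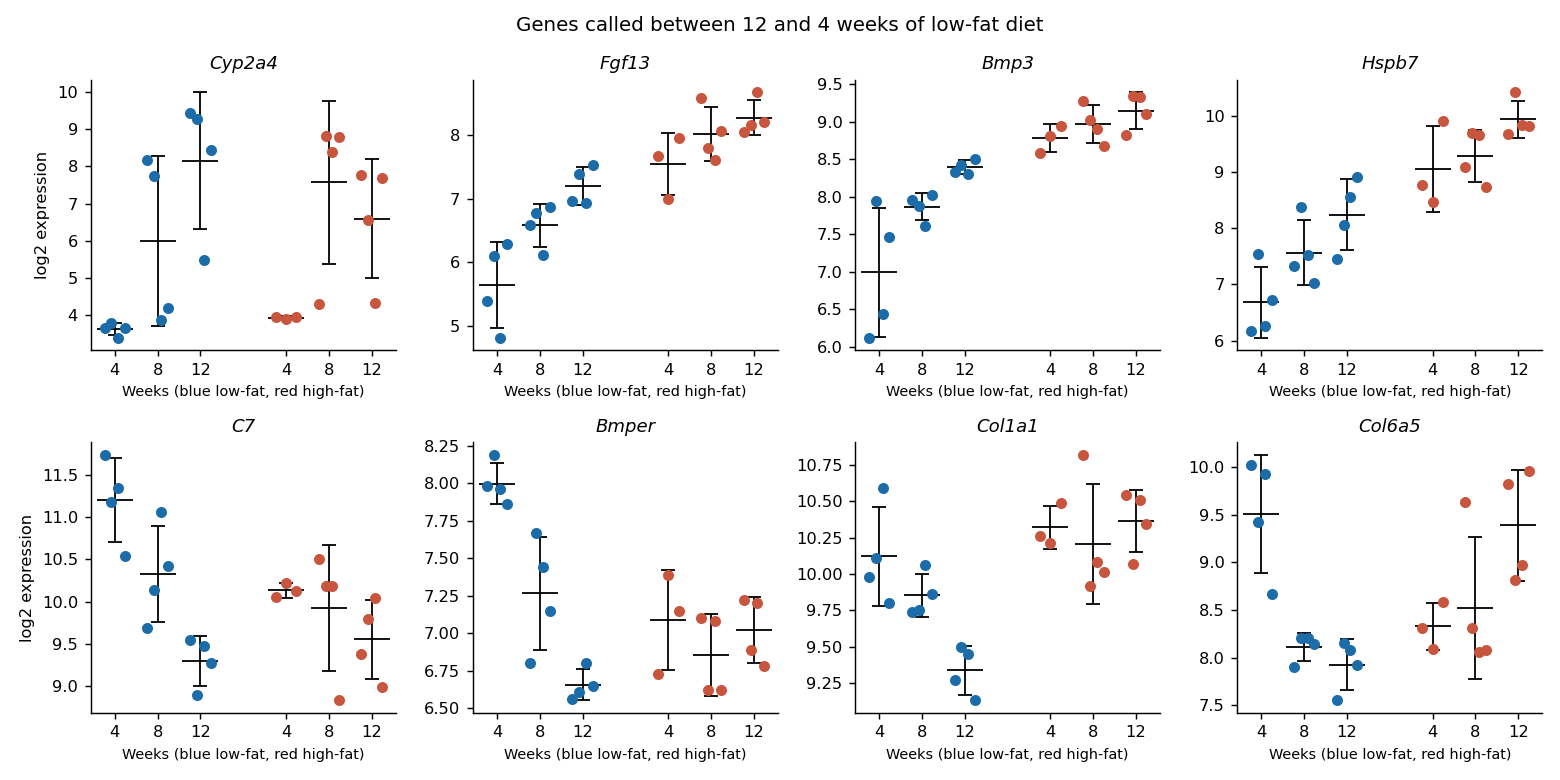
Log2 level against weeks of diet for 8 called genes, low-fat diet in blue and high-fat diet in red; points are single arrays, lines the mean ± SD of 3 or 4 arrays. Cyp2a4 is split within the 8- and 12-week groups, whereas for Fgf13, Bmp3, C7 and Bmper the low-fat arrays at 12 weeks all lie on 1 side of those at 4 weeks and the 8-week mean lies between. Col6a5 is lower at 12 weeks than at 4 weeks on low fat and higher on high fat.

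C7, Col6a5 and Bmper were among the 5 largest falls of genes with full names. C7, the complement component made by stromal cells, read 11.74, 11.18, 11.34 and 10.54 at 4 weeks and 9.54, 8.89, 9.48 and 9.27 at 12 weeks. The groups were a full unit apart at their closest, and array 3 was no exception. C7 fell by 1.91 ± 0.33 (3.75-fold, adjusted p = 0.0104), and the difference was -1.36 ± 0.34 at an equal hepatocyte mean (adjusted p = 0.149). Bmper, a secreted regulator that binds bone morphogenetic proteins, read 7.98, 8.19, 7.96 and 7.86 against 6.56, 6.61, 6.80 and 6.65. Both groups were tight and far apart, and the fall of 1.34 ± 0.23 (adjusted p = 0.0107) became -1.15 ± 0.28 (adjusted p = 0.134). Col6a5, a chain of collagen VI, read 10.02, 9.42, 9.93 and 8.67 against 7.55, 8.15, 8.08 and 7.92, a fall of 1.59 ± 0.32 (adjusted p = 0.024) that was -1.39 ± 0.39 at an equal hepatocyte mean. Its 8-week LFD arrays, at 7.90, 8.20, 8.20 and 8.14, were already at the 12-week level. Bmper read 6.78 in chow array 1, which held epididymis transcripts, and this was within its 12-week range. In chow array 2 it read 8.29, above every 4-week array. C7 (11.01 and 11.51) and Col6a5 (9.06 and 9.44) read within their 4-week ranges in both chow arrays.

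Col1a1, the main chain of collagen I, read 9.98, 10.11, 10.59 and 9.80 at 4 weeks and 9.27, 9.50, 9.45 and 9.13 at 12 weeks, a fall of 0.78 ± 0.18 (1.72-fold, adjusted p = 0.0425). Col3a1 read 10.75, 11.07, 11.24 and 10.77 against 10.44, 10.49, 10.39 and 10.10. Its groups did not overlap either, and its difference of -0.60 ± 0.16 was not called (adjusted p = 0.0757). Neither was called at an equal hepatocyte mean, where the differences were -0.48 ± 0.19 and -0.51 ± 0.20. Col1a2, the partner chain of Col1a1, differed by -0.38 ± 0.14 (adjusted p = 0.166). Of 26 measured genes of collagens and matrix, Col1a1 was the 1 that was called, where the share over all genes was 0.681%. The median difference of the list was -0.06, so most of its members did not share this size of difference. Thbs1 and Thbs2, matrix glycoproteins, had positive differences of 0.82 and 0.43, neither called.

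Tagln, an actin-binding protein of smooth muscle, read 7.93, 7.94, 8.00 and 7.81 against 7.21, 7.46, 7.23 and 7.36, and fell by 0.61 ± 0.13 (adjusted p = 0.0377). It was the 1 call among 12 genes of smooth muscle and pericytes, with 0.681% called over all genes. The difference of Tagln was -0.40 ± 0.15 at an equal hepatocyte mean (adjusted p = 0.316). Cyp1b1, an enzyme of estrogen and xenobiotic oxidation, read 7.23, 7.95, 7.75 and 7.51 against 6.92, 6.90, 7.12 and 6.96, and fell by 0.64 ± 0.14 (adjusted p = 0.037), with -0.49 ± 0.16 at an equal hepatocyte mean. Sult1e1, the estrogen sulfotransferase, read 10.49, 9.07, 8.82 and 8.88 against 7.87, 8.10, 7.59 and 7.82. It fell by 1.47 ± 0.34 (adjusted p = 0.0491), the same at an equal hepatocyte mean. Sult1e1 was also on the epididymis list, and array 1, where the other epididymis genes were high, was its highest.

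Irf7, the transcription factor that amplifies the type I interferon response, read 8.45, 8.24, 8.51 and 8.18 at 4 weeks and 7.70, 7.95, 7.34 and 7.16 at 12 weeks, a fall of 0.81 ± 0.16 (adjusted p = 0.021) that was -0.68 ± 0.19 at an equal hepatocyte mean. Ifi209, an interferon-inducible gene of the DNA-sensing p200 family, read 6.28, 6.60, 6.66 and 5.82 against 5.17, 5.53, 5.64 and 4.90, and fell by 1.03 ± 0.23. Phf11b, a zinc finger gene near others of its family, read 8.22, 7.37, 7.34 and 7.36 against 6.46, 6.65, 6.70 and 6.50, and fell by 1.00 ± 0.22. Its high value in 4-week array 1 did not set the order, since the other 4-week arrays were above every 12-week array. The call of Phf11b was nevertheless lost without 4-week array 1. Among 16 measured interferon-stimulated genes Irf7 was the 1 call, with 0.681% called over all genes, and the list's median difference was -0.14. The chow arrays read 7.55 and 8.19 for Irf7, 4.39 and 4.92 for Ifi209, and 6.95 and 7.39 for Phf11b. For Ifi209 both were below every 4-week array.

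Some falls were of genes with close copies and low values. Oog1, a gene of the oocyte with several copies in the genome, read 5.32, 4.44, 4.70 and 4.59 at 4 weeks and 3.46, 3.65, 3.10 and 3.28 at 12 weeks. It fell by 1.39 ± 0.21 (adjusted p = 0.00249) and by 1.57 ± 0.25 at an equal hepatocyte mean (adjusted p = 0.00598), the 1 gene with a full name that fell in both. That cluster is 1 of 2 for the gene, and the mean of the 2 clusters differed by -0.64 and was not called (adjusted p = 0.0774); at an equal hepatocyte mean the call was also lost without 12-week array 3. Ssxb8, Fam205a2 and Smok4a, all members of multi-copy families, fell by 1.32 ± 0.28, 1.30 ± 0.25 and 1.00 ± 0.22. Probes of such families can read several copies, so which copy gave the signal is uncertain.

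Calls close to the threshold depended on single arrays. Of the 28 called genes named by rule, C7, Bmper and Oog1 were the 3 that were called whichever 1 of the 8 arrays was left out. Fgf13 was lost without 12-week array 4 alone, Irf7 without 4-week arrays 1 or 3 or 12-week array 4, and Bmp3 without 4-week arrays 1 or 3 or 12-week arrays 2 or 4. Without 4-week array 1, which held the epididymis transcripts, the call was lost for most of the others. Hspb7, Col6a5, Col1a1, Nfil3, Mdm2, Tagln, Sult1e1 and Phf11b were among them, and all of these were also lost without 12-week arrays 2 or 4. Cyp2a4, Elovl3, Cyp2b13, Onecut2, Dnase1l3 and Mdm2 kept the call only where the array left out was 12-week array 3.

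Of the 14 genes lower at an equal hepatocyte mean, 7 were microRNA hairpins, 3 were olfactory or vomeronasal receptors (Olfr1219, Olfr726 and Vmn1r44) and 3 had provisional names. The array probes lie in hairpin genes and the labelled material came from total RNA, so these values are of hairpin or host transcripts and not of mature microRNA. The 7 hairpins are named here after their values were seen. RefSeq's table for the GRCm38.p6 build held 5 of them, and the mature sequences it lists are printed 5′ to 3′, with the seed, bases 2 to 8 that pair with targets, in capitals, to show which microRNAs these hairpins encode.

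mmu-miR-210-3p: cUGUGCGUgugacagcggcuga
mmu-miR-210-5p: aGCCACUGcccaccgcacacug
mmu-miR-301b-5p: gCUCUGACuagguugcacuacu
mmu-miR-9-5p: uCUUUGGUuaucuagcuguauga
mmu-miR-9-3p: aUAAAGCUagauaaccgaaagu
mmu-miR-3471: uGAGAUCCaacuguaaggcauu
mmu-miR-344d-3p: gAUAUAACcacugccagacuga
mmu-miR-344d-2-5p: aGUCUGGUugcuggcuauauucca

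No seed was shared among the 5 hairpins with a sequence. The products of Mir210 lie on chromosome 7 on the minus strand (chr7:141221407-141221428 for the 3p arm), that of Mir301b on chromosome 16 (chr16:17124456-17124477, minus strand), those of Mir9-1 on chromosome 3 (chr3:88215613-88215635 for the 5p arm, plus strand), that of Mir3471-1 on chromosome 4 (chr4:10845585-10845606, minus strand) and the 3p arm of Mir344d-2 on chromosome 7 (chr7:61685279-61685300, minus strand).

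Mir210, the host of a microRNA known for its induction by hypoxia, read 7.65, 7.51, 7.37 and 7.27 at 4 weeks and 6.35, 6.30, 6.30 and 5.84 at 12 weeks. The groups did not overlap, and the cluster fell by 1.25 ± 0.16 (2.38-fold, adjusted p = 0.000639), and by 1.33 ± 0.20 at an equal hepatocyte mean (adjusted p = 0.00414). Its 8-week LFD arrays, at 7.45, 7.45, 7.30 and 7.25, were at the 4-week level. Mir301b read 6.47, 6.29, 5.98 and 6.20 against 4.85, 4.73, 4.89 and 4.37, a fall of 1.53 ± 0.16 that was 1.54 ± 0.20 at an equal hepatocyte mean. The 8-week arrays of Mir301b lay between, at 5.29, 5.30, 5.53 and 5.21. Mir9-1, which encodes the neuronal miR-9, read 5.57, 5.22, 5.37 and 5.43 against 3.25, 4.59, 3.85 and 3.91, a fall of 1.50 ± 0.24. That cluster is the higher of 2 for Mir9-1. With the mean of a gene's clusters, 13 of the 15 genes were still called at an equal hepatocyte mean.

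Mir467e and Mir467c, from a large repeated cluster of related hairpins, were the largest falls of the 7. Mir467e read 9.30, 6.89, 7.49 and 7.00 at 4 weeks and 4.42, 4.80, 5.76 and 4.47 at 12 weeks, a fall of 2.81 ± 0.38 (7.00-fold) with a high 4-week array 1. Mir467c read 9.23, 8.39, 8.55 and 8.17 against 6.58, 7.15, 6.45 and 6.12, a fall of 2.01 ± 0.26. Mir3471-1 read 5.41, 5.26, 4.53 and 5.85 against 3.48, 3.53, 3.37 and 3.16, a fall of 1.88 ± 0.23, and Mir344d-2 read 7.11, 6.02, 5.91 and 6.05 against 5.35, 5.20, 5.13 and 4.58, a fall of 1.21 ± 0.24. For each of the 7 hairpins no 12-week array reached a 4-week array. That held for all 15 genes called at an equal hepatocyte mean, from which the 7 come, and for 8.82% of all genes. Array 3 of the 12-week group was lowest in none of the 7 and highest in 2, Mir301b and Mir467e. The median difference over all 483 hairpins was -0.08, so the 7 are not typical of their kind.

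**Figure D3:**
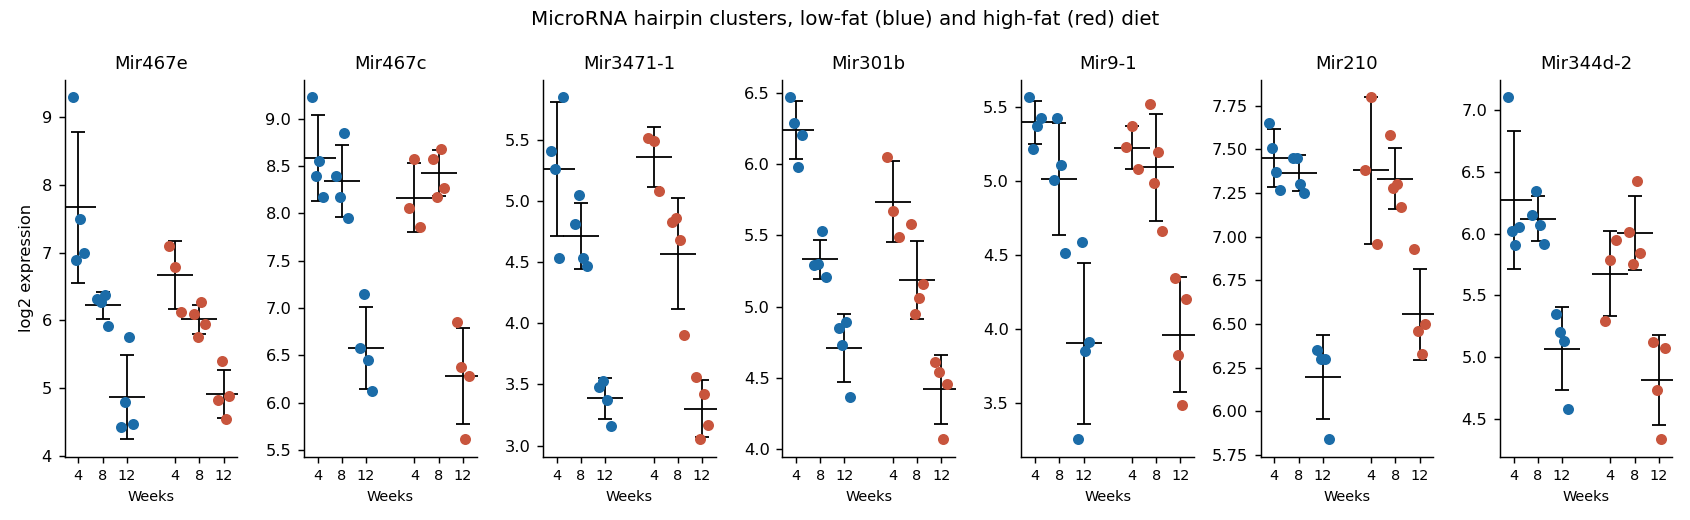
Log2 level against weeks of diet for the 7 microRNA hairpins that were lower at an equal hepatocyte mean, low-fat diet in blue and high-fat diet in red; points are single arrays, lines the mean ± SD of 3 or 4 arrays. In each hairpin the 4 low-fat arrays at 12 weeks are below the 4 at 4 weeks, and the high-fat arrays at 12 weeks are also low.

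The HFD arrays give the same time span in other mice. Their means do not enter the LFD difference, but the same arrays enter the model's spread and its hepatocyte slope. Between 4 and 12 weeks of HFD 127 genes were called (0.573%), 86 higher and 41 lower. Of the 66 genes higher on LFD, 64 had a positive difference on HFD and 5 were called there; of the 85 lower, 79 had a negative difference and 17 were called. Over all genes the sign was the same in 62.1%. Of the HFD arrays, 3 of the 4 at 12 weeks and 0 of the 3 at 4 weeks also had a high hepatocyte mean. Array 1 of the 4-week HFD group had an epididymis mean of 9.97, against 4.25 in both other arrays of that group, and chow array 1 had 11.56. In fits without these arrays, chosen after seeing the data, the HFD calls changed. Without that HFD array, which leaves 2 at 4 weeks of HFD, 13 genes were called on HFD, 5 higher and 8 lower. Of the 66 LFD rises 64 were still positive on HFD, with 1 called, and of the 85 falls 78 were negative, with 7 called. Without all 3 arrays with epididymis transcripts 95 genes were called on HFD, and the LFD rises and falls called there numbered 5 and 14. Mdm2 read 8.06, 7.69 and 8.18 at 4 weeks of HFD and 8.49, 8.53, 8.45 and 8.73 at 12 weeks, a rise of 0.57 ± 0.11 (adjusted p = 0.0256). Oog1 fell by 1.20 ± 0.23 on HFD, from 4.89, 4.20 and 4.03 to 3.15, 3.34, 3.07 and 3.13. Of the 7 hairpins, Mir301b, Mir3471-1, Mir467c, Mir9-1 and Mir210 also fell on HFD, by 1.32, 2.06, 1.88, 1.27 and 0.83, while Mir467e (-1.76, adjusted p = 0.0536) and Mir344d-2 (-0.86, adjusted p = 0.151) were not called there. Without HFD 4-week array 1 the HFD call was lost for Mdm2, Oog1, Mir9-1 and Mir210 (adjusted p of 0.101, 0.148, 0.133 and 0.152), and Mir301b, Mir3471-1 and Mir467c were still called. Without all 3 arrays with epididymis transcripts these last hairpins, Mdm2 and Oog1 were called on HFD (adjusted p of 0.041 and 0.0389 for Mdm2 and Oog1). So were Mir467e and Mir344d-2 (0.0357 and 0.0415), whereas Mir9-1 and Mir210 were not (0.0648 and 0.066).

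**Figure D4:**
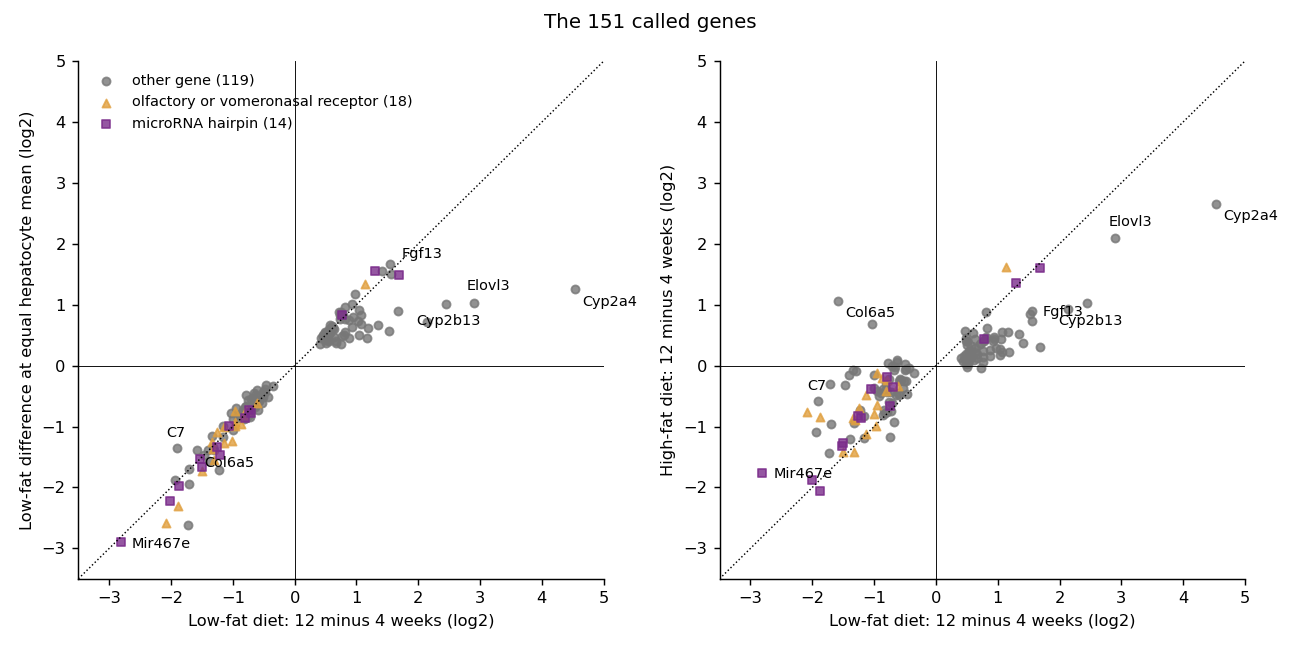
The 151 called genes as points, with the low-fat difference between 12 and 4 weeks on the x axis and, on the y axis, the same difference at an equal hepatocyte mean (left) or the difference between 12 and 4 weeks of high-fat diet (right), all in log2 units; the dotted line marks equal values. Cyp2a4, Elovl3 and Cyp2b13 lie well below the line on the left, and 64 of 66 rises and 79 of 85 falls have the same sign on the right.

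The 7 genes with full names that were called on both diets were, besides Mdm2 and Oog1, Frrs1, Cytl1, Ifitm2, Cdh4 and Cldn34b2, given here after their values were seen. Frrs1, a membrane ferric reductase, read 6.82, 7.36, 7.51 and 7.30 at 4 weeks of LFD and 8.03, 8.23, 7.99 and 7.98 at 12 weeks. It rose by 0.81 ± 0.16 on LFD and by 0.88 ± 0.18 on HFD, and was 0.96 ± 0.20 higher on LFD at an equal hepatocyte mean. Cytl1, a small secreted protein, read 7.29, 7.40, 7.41 and 7.52 against 6.50, 6.67, 6.79 and 6.69, and fell by 0.74 ± 0.15 on LFD and by 1.17 ± 0.16 on HFD (adjusted p = 0.00167). Ifitm2, which restricts the entry of viruses, read 8.58, 9.15, 8.76 and 8.96 against 8.08, 8.21, 8.18 and 8.26, and fell by 0.68 ± 0.15 and 0.93 ± 0.16. Cdh4, a cadherin of cell adhesion, fell by 0.86 ± 0.16 and 0.81 ± 0.17, and Cldn34b2, a claudin, by 0.73 ± 0.14 and 0.74 ± 0.16. Of these 5, Cytl1 and Ifitm2 were still called on HFD without HFD 4-week array 1. Without all 3 arrays with epididymis transcripts Frrs1 and Cdh4 were called on HFD as well (adjusted p of 0.0263 and 0.0144), and Cldn34b2 was not (0.104). None of these 5 had overlapping LFD arrays, as was so for 145 of the 151 calls. In all 5, 12-week array 3 was on the side of arrays 1, 2 and 4. It lay beyond all 4-week arrays in 65 of the 66 rises and 84 of the 85 falls, so neither trait sets the 5 apart from other calls.

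Some other calls with full names were also chosen after their values were seen. Mrpl20, a protein of the mitochondrial ribosome, read 6.22, 6.90, 6.73 and 6.66 against 7.30, 7.25, 7.44 and 7.55, a rise of 0.76 ± 0.17. Mlx, the partner of the carbohydrate-response factor ChREBP, read 7.01, 7.33, 7.40 and 7.65 against 7.94, 7.80, 7.84 and 8.25, a rise of 0.61 ± 0.13 that was 0.63 ± 0.16 at an equal hepatocyte mean. Acot2, a mitochondrial acyl-CoA thioesterase, read 9.64, 10.31, 10.21 and 10.50 against 11.72, 11.02, 11.03 and 10.80, a rise of 0.98 ± 0.23. Vhl, the protein that marks hypoxia-inducible factors for degradation, read 6.48, 7.11, 6.76 and 6.64 against 7.17, 7.37, 7.19 and 7.41, a rise of 0.54 ± 0.12. Fabp3, a fatty acid-binding protein of muscle and brown fat, was among the falls, from 9.52, 9.15, 9.11 and 9.07 to 8.54, 8.90, 8.54 and 8.76 (-0.53 ± 0.10). In each of these genes the groups did not overlap, as in 145 of the 151 calls. In each, 4-week array 1 was the array farthest from the 12-week arrays, as in 42 of the 66 rises and 56 of the 85 falls. Of all genes higher in mean at 12 weeks, called or not, that array was the lowest 4-week array in 46.2%. Of all genes lower in mean it was the highest in 46.0%.

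The test of whether the time difference itself differed between LFD and HFD called 0 of 22180 genes with limma, where the unadjusted p was under 0.05 for 1236 and the smallest adjusted p was 0.277. At an equal hepatocyte mean it also called 0, with 1233 at an unadjusted p under 0.05 and a smallest adjusted p of 0.226. The smallest p belonged to Col6a5, which on HFD read 8.31, 8.09 and 8.58 at 4 weeks and 9.82, 8.81, 8.97 and 9.96 at 12 weeks. Every HFD array was higher at 12 weeks than at 4 weeks and every LFD array was lower, a difference between diets of -2.65 ± 0.47 that missed the threshold. Ifi209 and Stil, a gene of centriole duplication, were next in order, with differences between diets of -1.71 ± 0.34 and -1.04 ± 0.21 (adjusted p = 0.448 for both). At an equal hepatocyte mean the 3 with the smallest p were Col6a5, Stil and Serpina1e, an alpha-1-antitrypsin gene of liver with near-identical copies. Bmper, which fell on LFD, read 6.73, 7.39 and 7.15 at 4 weeks of HFD and 7.22, 6.89, 7.20 and 6.78 at 12 weeks, a difference of -0.07 ± 0.25. Its difference between diets was not called (adjusted p = 0.723), so the diets are not shown to differ in it.

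Few members of the lists for the main functions of adipose tissue were called between 4 and 12 weeks of LFD. Over all genes the share called was 0.681%, so a list of this size would seldom hold a call. Adipoq, the adiponectin gene, read 11.57, 11.69, 11.65 and 11.58 against 11.45, 11.32, 11.58 and 11.32, a difference of -0.21 ± 0.16. Pparg, the regulator of adipocyte identity, Lpl, the lipase that frees fatty acids at the capillary wall, and Slc2a4, the insulin-regulated glucose transporter, differed by 0.05 ± 0.24, 0.00 ± 0.10 and -0.02 ± 0.23. Retn, which encodes resistin, and Scd1, a fatty acid desaturase, differed by -0.01 ± 0.11 and -0.15 ± 0.09. Plin1, which coats the lipid droplet, and Pnpla2, the first lipase of lipolysis, differed by 0.21 ± 0.22 and -0.16 ± 0.18. Ucp1, the uncoupling protein of brown fat, read between 3.77 and 4.25 in all 8 arrays, and Elovl3 was the 1 call among 9 thermogenic genes.

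De novo lipogenesis had 0 of 17 genes called and a median difference of 0.26. Fasn, the fatty acid synthase, read 12.34, 13.34, 13.74 and 13.83 at 4 weeks and 13.49, 13.43, 13.56 and 13.60 at 12 weeks. The 12-week arrays lay within the 4-week range, which 4-week array 1 widened at its low end, and the difference was 0.21 ± 0.22. Acaca, the enzyme before it, also had its lowest value in 4-week array 1 and read 10.53, 11.52, 12.32 and 12.37 against 11.87, 11.69, 12.13 and 12.08, with a difference of 0.26 ± 0.27. Cholesterol synthesis had 0 of 16 called, with a median difference of 0.18, or 0.39 at an equal hepatocyte mean, and branched-chain amino acid breakdown 0 of 17 with a median of 0.00. Fatty acid oxidation in mitochondria (0 of 17, median 0.18), oxidative phosphorylation (0 of 19, median 0.09) and insulin signalling (0 of 14, median 0.03) gave no calls.

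Immune cell lists likewise gave none. With 0.681% of all genes called, a count of 0 in lists of this size says little about these cells. Cd68, a lysosomal protein of macrophages, read 8.72, 9.76, 8.97 and 8.91 against 8.91, 9.53, 9.58 and 9.76, a difference of 0.36 ± 0.30, and Adgre1, a surface receptor of macrophages, differed by -0.17 ± 0.22. The 22 macrophage genes had a median difference of -0.07. The 14 genes of lipid-associated macrophages, the type that takes up lipid around dying adipocytes, had a median of 0.23, or 0.57 at an equal hepatocyte mean, with 0 called in either. Atp6v0d2 and Gpnmb, both of that list, differed by 0.96 ± 0.67 and 0.65 ± 0.55, and in both 4-week array 2 lay within the 12-week range. Itgax, an integrin of such cells, differed by 0.18 ± 0.33. The 12 genes of eosinophils and mast cells had the lowest median of the immune lists, -0.29, with 0 called. Cpa3 and Tpsb2, mast cell proteases, read 8.05, 7.57, 8.55 and 7.74 against 6.87, 7.08, 8.06 and 7.23, and 6.49, 6.65, 6.72 and 6.41 against 5.60, 5.63, 6.21 and 6.18. Both were lower in 12-week arrays 1 and 2 than in array 3, and their differences, -0.67 ± 0.25 and -0.66 ± 0.21, were not called. T cells and natural killer cells (0 of 16, median -0.02), B cells (0 of 13, median -0.04), MHC class II (0 of 9, median -0.13) and cell cycle genes (0 of 19, median -0.13) were not called either. Fewer cells of a type and less RNA per cell cannot be told apart in such tissue samples.

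**Figure D5:**
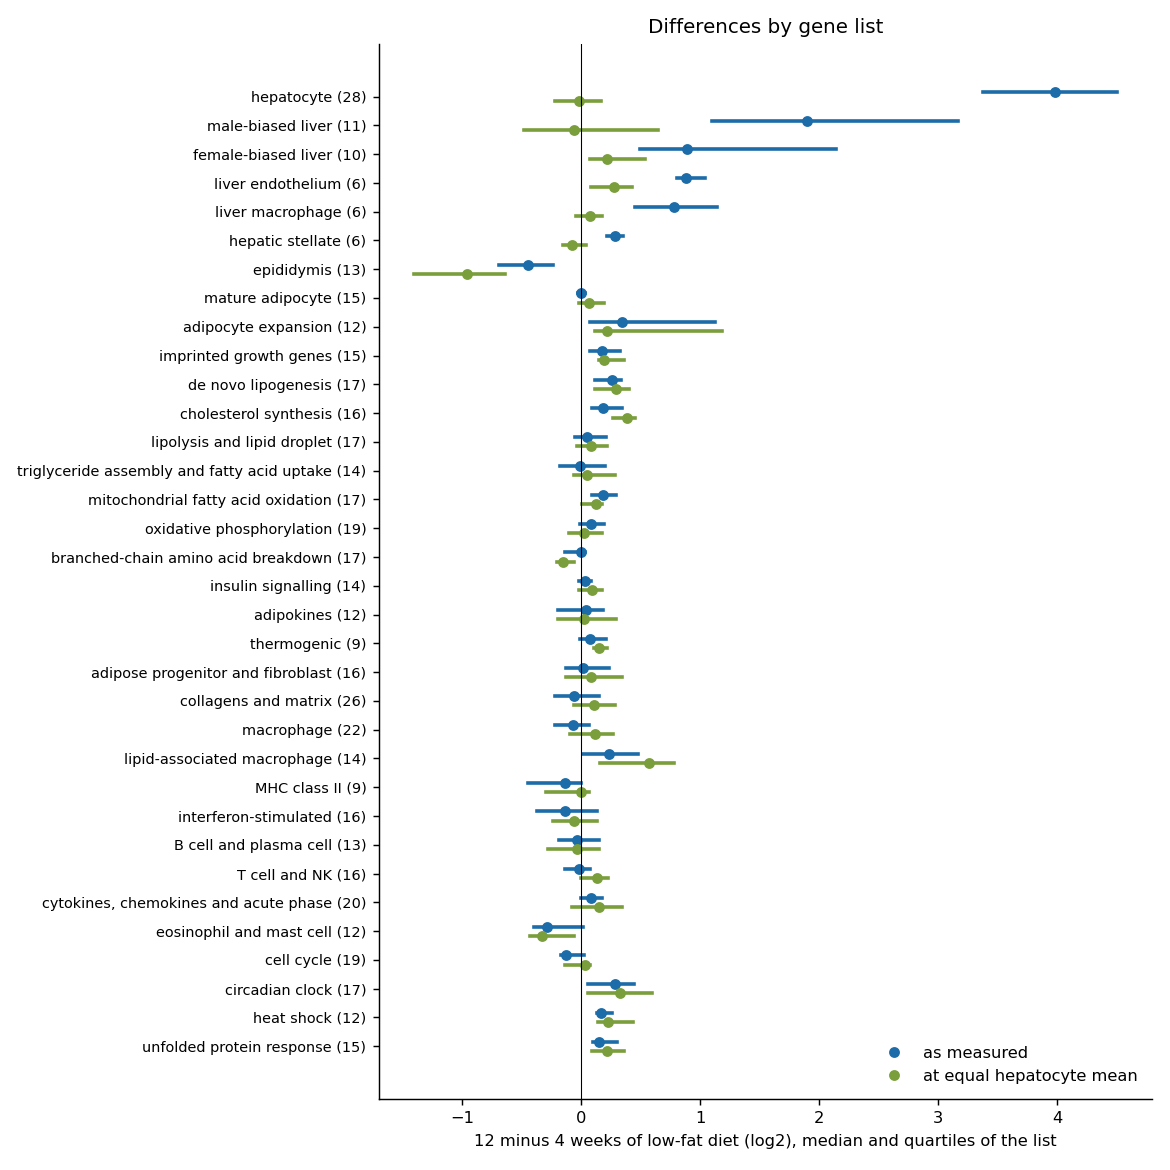
Difference between 12 and 4 weeks of low-fat diet in log2 units by gene list, with the number of measured genes in brackets; points are medians and bars quartiles over the genes of a list, as measured (blue) and at an equal hepatocyte mean (green). As measured the hepatocyte median is farthest to the right, at 3.98; at an equal hepatocyte mean the medians run from -0.96 for the epididymis list to 0.57 for lipid-associated macrophages.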

How the data were processed

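Gonadal white adipose tissue was measured on Affymetrix Mouse Gene 2.0 ST arrays. The series' design text names the Transcriptome Analysis Console 4.0.2 as the software the authors used. The deposited values run from 1.73 to 14.13 and were taken as log2. The sources used here state no background correction, normalization or hybridisation batch. Of 34472 transcript clusters, 23521 carried 1 gene symbol in the platform annotation, 1814 several and 9137 none. The cluster with the highest mean stood for each of 22180 genes. A linear model with a mean for each of the 7 groups was fitted to the 25 arrays (limma 3.58.1, R 4.3.3, 18 residual degrees of freedom), alone and with the hepatocyte mean as a covariate, and tested with limma's moderated test, checked on simulated data. No filter on level was used. Arrays with the same replicate number deviated together (correlation over 0.1) in 2 of 4 pairs. Numbers were not taken as pairs, since the labels call the arrays replicates of separate mice.

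The named genes were a panel of 24 genes, up to 10 called rises and 10 called falls of each fit with the largest change, up to 4 called members of each list described, and, where no difference between diets was called, the 3 genes with the smallest p. Predicted genes, receptors and small RNAs were to be counted only; those named, and the list members given as examples beyond the rule (Clec4g, Vsig4, Gata4, Marco, Fcna, Col1a2, Thbs1, Thbs2, Atp6v0d2, Gpnmb, Cpa3, Tpsb2, Frrs1, Cytl1, Ifitm2, Cdh4, Cldn34b2, Mrpl20, Mlx, Acot2, Vhl and Fabp3), were chosen after their values were seen. Members and lists were chosen with earlier results of these data known. Alternatives covered normalization, filters, clusters, weights, the replicate block, the covariate, groups of arrays and single arrays left out.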

Additional observations from a re-analysis of the deposited data

Results flagged for a closer look

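In 13 of 118 sets of 4 arrays examined, 1 array lay far from the other 3, by a gap beyond Dixon's 95% limit. Chance gives about 1 in 20 such sets, and sets of related genes are not independent. Array 1 of the 4-week group was the distant array in 8 of the 13. There Plin1 read 11.15 (others 11.86 to 11.98), Pnpla2 12.1 (12.62 to 12.70), Zfand2a 8.00 (8.34 to 8.41) and Nfil3 5.59 (5.95 to 6.02), all lower than in the other 4-week arrays. In the same array Sult1e1 read 10.49 (8.82 to 9.07), Phf11b 8.22 (7.34 to 7.37), the epididymis mean 5.98 (4.35 to 4.47) and the array median 5.36 (5.11 to 5.13), all higher. Ccl2, a chemokine for monocytes, read 6.83 in 4-week array 2 (6.28 to 6.36). At 12 weeks, Alb read 11.84 in array 3 (13.16 to 13.42), Ppp1r3b 9.74 in array 4 (8.40 to 8.52), Stil 4.33 in array 2 (4.08 to 4.09) and the epididymis mean 4.44 in array 2 (4.21 to 4.24).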

How the results depend on the processing

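No named gene that was called changed sign under any alternative; signs of the 10 uncalled genes that did are not read as directions. The count of 151 calls was 701 over all transcript clusters, 1335 with array weights, 99 without the arrays with epididymis transcripts (60 shared with the 151), 295 without the chow arrays, 892 by the analysis of variance with unadjusted p and fold limit (65 after adjustment), 14 with the 8 arrays alone, 0 without the arrays high in hepatocyte transcripts (1 array is left at 12 weeks and assumed to vary like other groups) and 59 without receptors, small RNAs and provisional genes, an alternative chosen after seeing the data. Leaving out 1 of the 8 arrays gave 28 to 639. Quantile normalization gave 212, of which 28.3% were higher at 12 weeks, against 43.7% as deposited. At an equal hepatocyte mean the count of 15 was 9 without low genes, 210 over all clusters, 32 with array weights, 35 without chow, 676 by the analysis of variance (18 after adjustment), 60 with Alb alone as the covariate, 1 without receptors, small RNAs and provisional genes, 5 without epididymis and 8-week arrays (both chosen after seeing the data) and 12 to 30 with 1 array left out, 30 without 4-week array 2 and 26 without 4-week array 4. The count of 0 for the difference between diets was 510 by the analysis of variance and 0 to 1 with 1 array left out; at an equal hepatocyte mean it was 485, 1 without the epididymis arrays, and 0 to 1. The causes of these shifts were not tested. All other alternatives kept each count within 1.5 times.

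With the replicate block, 209 genes were called, and 15 at an equal hepatocyte mean. Same-numbered arrays correlated at 0.18, -0.06, 0.25 and 0.05 in their deviations, and differently numbered arrays between -0.22 and 0.19. These few values cannot settle whether arrays of 1 number share handling, and no pairing was used in the main fit. The number of arrays, 4 in each group, limits the precision.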
